A study of Homo sapiens with 1 sample.

Results

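EMX2-high dorsal telencephalic-like cells are cells of a culture turned towards neural progenitor cells (NPCs). They were picked for a high level of EMX2 RNA in a single-cell RNA-seq library, with no progenitor marker in the rule. They were the 8% of kept cells with the most EMX2 unique molecular identifiers (UMIs, each standing for 1 captured RNA molecule) per 10000 UMIs of the cell. The rule gave 953 EMX2-high cells of 11916 kept cells, in a library of 14726 cell barcodes. A cell was kept with 2000 to 10000 detected genes, with a mitochondrial share of its UMIs from 0.01 to below 0.1, with fewer than 5 UMIs per 10000 of the contractile-cell genes ANXA1, TFPI2 and CTGF, and with fewer than 2 UMIs of the eye-field genes RAX and SIX6. The comparators were the 4944 kept cells with 0 EMX2 UMIs and at least 10000 UMIs.

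The library is the hHAR123 one, in which HAR123, a human accelerated region inside the gene SMG6, has its human sequence (genotype WT). Its cells derive from H9, an established human embryonic stem cell line, and were turned towards NPCs with the BMP and activin/TGF-beta receptor inhibitors Dorsomorphin and SB431542, after a start with a Rock inhibitor, passing through embryoid bodies that were replated on Matrigel. All cells described here share that genotype and treatment. The study pooled separate clones of this genotype and took the cells ahead of rosette picking, so the clones cannot be told apart here. With 1 library there is no replicate. Every comparison is between cells of the same library, no test was run, and each 95% interval covers counting error only, since cells are not replicates.

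EMX2 encodes a homeodomain transcription factor of the dorsal telencephalon, the part of the forebrain that forms the cerebral cortex and hippocampus. In the embryo it is most abundant in the medial and caudal cortical primordium, where WNT and BMP signals are strong, while FGF signals from the anterior ridge mark the opposite, rostral end. LHX2, a LIM-homeodomain factor, is needed for cortical identity and marks the cortical primordium as a whole. PAX6 marks the dorsal progenitors, and the DLX genes, GSX2 and NKX2-1 are used as markers of the ventral telencephalon.

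EMX2 (ENSG00000170370) is a plus-strand gene of chromosome 10, with start 117542445 and end 117549546 (GRCh38, GENCODE version 44). EMX2-high cells held 1 to 16 EMX2 UMIs each, with a median of 4, and 1 EMX2 UMI was found in 3 of them. Their EMX2 rate ran from 2.03 to 9.02 UMIs per 10000, with a median of 2.58. These values chose the cells and are a description. The rate had no gap at the boundary. The last cell inside had 2 EMX2 UMIs among 9846 UMIs (2.0313 per 10000) and the first outside had 5 among 24620 (2.0309 per 10000), and 122 EMX2-high cells and 123 other cells lay within 5% of the boundary. An EMX2 UMI was found in 6636 kept cells (55.7%), so the EMX2-high cells are the upper end of a broad range. They held 29.4% of the EMX2 UMIs of kept cells.

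At a few UMIs per cell, sampling alone can place a cell among the highest. Each UMI of the kept cells was therefore assigned at random, with equal odds, to a choosing set or a reading set. Cells were chosen by the same rule on the choosing set, and EMX2 was read in the reading set. The EMX2 level, in counts per 1000000 UMIs (CPM) summed over a group, was 342 CPM in the choosing set. In the reading set it was 135.4 CPM (127 to 144) in the chosen cells and 40.9 CPM (39.4 to 42.5) in 6874 comparators chosen in the same way, a ratio of 3.31 (3.08 to 3.56). Of the 953 EMX2-high cells, 556 (58.3%) were chosen again. The higher EMX2 level was therefore present in UMIs that did not choose the cells, at a smaller size, and membership was unstable for individual cells.

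**Figure D1:**
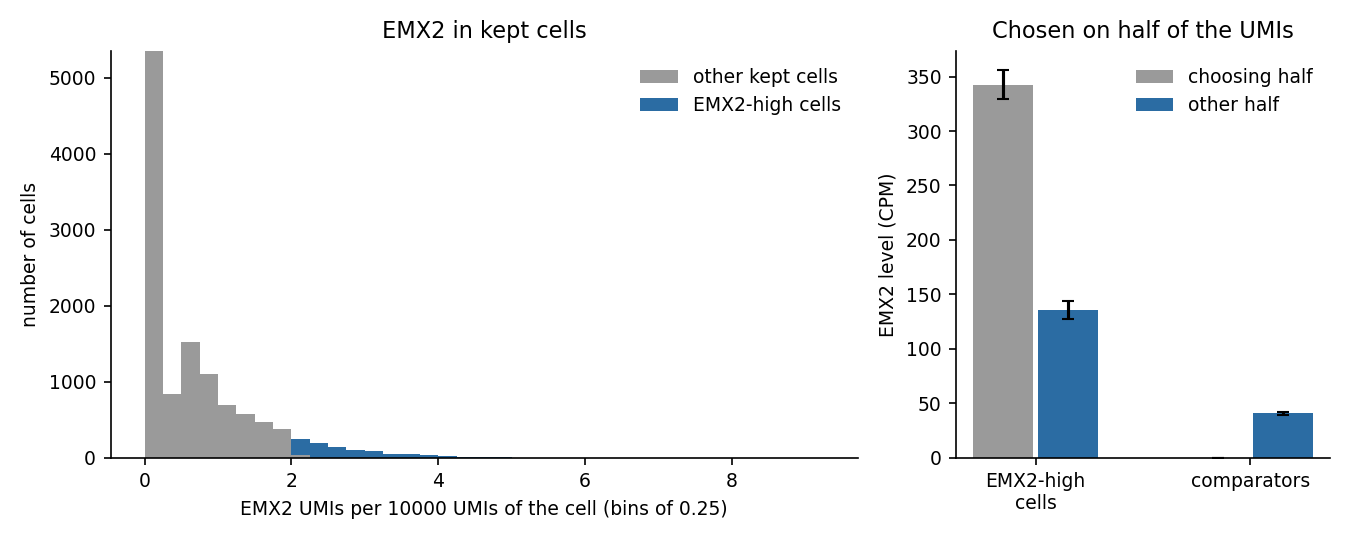
Left, number of kept cells by EMX2 UMIs per 10000 UMIs in bins of 0.25, with EMX2-high cells in blue and other kept cells in grey. Right, EMX2 level in CPM (bars, with exact 95% Poisson intervals) in cells chosen on the choosing set, for both sets. The EMX2-high cells form the tail of a continuous range, and in the reading set the level was 135.4 CPM against 40.9 CPM in comparators.

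The EMX2-high cells had a median of 14474 UMIs (3947 to 52358), against 16837 in the comparators (10001 to 92060). Of them, 134 (14.1%) had fewer than 10000 UMIs, a depth that the comparators could not have. A further 336 kept cells had 0 EMX2 UMIs and fewer than 10000 UMIs and are in neither group. A count of 0 does not show that a cell lacked EMX2 RNA, at that depth or in the comparators. The 6874 comparators chosen on the choosing set alone had EMX2 at 40.9 CPM in the reading set, with a UMI in 28.1% of them. The comparators are therefore cells in which no EMX2 UMI was found, not cells known to lack EMX2 RNA. Of 56 genes named as higher, 32 were also 1.5-fold higher in the shallow cells than in the comparators, and 6 were there at or above their level in EMX2-high cells (FEZF2, DLL3, DCC, STMN2, ELAVL3 and AL139246.5). Of 61 named as lower, 35 were also lower there, and CDH6, ANXA1 and NEAT1 were at or below their EMX2-high level. Of the 7 dorsal factors that were higher, 2 were also higher there. The part of depth in these differences was not tested beyond a matched range.

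The median mitochondrial share was 4.90% against 5.35%. A larger difference between the groups lay in smooth-muscle-type RNA. Cells with at least 5 UMIs per 10000 of TAGLN, ACTA2, CNN1 and MYL9 were 17 of the EMX2-high cells (1.78%) and 1291 of the comparators (26.1%). Of 117 genes that differ by 1.5-fold between the groups and are followed through other choices of cells, 82 still differed that much with these contractile-rich cells left out of both groups, 26 were within 1.5-fold and 9 were below a mean level of 5 CPM. Ratios without them stand beside many of the genes named.

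The dorsal label was set beside a list of 25 dorsal telencephalic factors other than EMX2. A gene entered the comparison when the mean of its levels in the EMX2-high cells and in the comparators was at least 5 CPM, and it is called higher or lower at 1.5-fold. Over all 11893 genes that passed, 428 were higher (3.6%) and 379 were lower (3.19%), with a median ratio of 1.00. Of these genes, 178 passed only through EMX2-high cells and 139 only through the comparators. Of the dorsal list, 14 genes passed, 7 of them were higher, 0 were lower and 7 were within 1.5-fold, with a median ratio of 1.48. EMX1 and OTX1, both higher, were below 5 CPM in the comparators and passed only through their level in EMX2-high cells, so the count is a description and no support for the label. With the minimum set on the comparators alone, a choice made after seeing the data, 12 dorsal factors passed, 5 were higher and 0 were lower, against 350 higher and 421 lower over all 11808 genes that then passed. With the contractile-rich cells left out of both groups, 15 passed, 6 were higher and 1 was lower, with a median ratio of 1.29, against 254 higher and 187 lower over all 11904 genes that then passed. How many of these 15 passed only through EMX2-high cells was not counted. That count is likewise a description and no support for the label. Among G1 cells of both groups 20 dorsal factors passed, 13 were higher and 1 was lower. Over all 11844 genes that then passed, 553 were higher and 586 lower. How many of the 20 passed only through EMX2-high cells was not counted, so this count too is a description and no support for the label.

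LHX2, the other marker of the label, was at 211 CPM (204 to 218) in EMX2-high cells and at 140.3 CPM (138 to 143) in the comparators, a ratio of 1.504 (1.45 to 1.56). LHX2 UMIs ran from 0 to 14 per EMX2-high cell with a median of 3, and from 0 to 16 with a median of 2 in the comparators, so the cells overlap widely. The ratio stood at the limit. It was 1.29 without the contractile-rich cells, 1.34 in the reading set, 1.38 between 10000 and 30000 UMIs per cell, and 1.23 by UMIs per cell. LHX2 RNA was thus present in both groups, at levels of the same order.

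EMX1, the paralog of EMX2 and a marker of cortical progenitors, had the largest ratio of the dorsal genes that passed. As it passed only through its level in EMX2-high cells, this rank is a description. EMX1 was at 9.46 CPM (7.97 to 11.1) against 2.64 CPM (2.33 to 2.99), a ratio of 3.58 (2.89 to 4.41). It was sparse, with a UMI in 111 EMX2-high cells (11.6%) and in 4.67% of the comparators. OTX1, a homeodomain factor of the forebrain and later of deep cortical layers, was at 12.5 against 4.003 CPM, a ratio of 3.13 (2.61 to 3.73). DMRTA1, a DM-domain factor of the dorsal telencephalon, was at 32.4 against 15.03 CPM (ratio 2.16, 1.94 to 2.39).

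The nuclear receptors NR2F1 and NR2F2, which are most abundant in caudal cortex, were higher with ratios of 1.92 (1.76 to 2.10) and 1.64 (1.43 to 1.87). FEZF2, a zinc-finger factor of early forebrain and deep-layer neurons, was at 81.2 against 48.8 CPM (ratio 1.67, 1.56 to 1.77). FEZF2 had a ratio of 1.39 without the contractile-rich cells, and the shallow cells with 0 EMX2 UMIs had it at 81.9 CPM (71.8 to 93.1), no lower than the EMX2-high cells. EMX1 (2.62), OTX1 (2.29), DMRTA1 (1.92) and NR2F2 (1.53) stayed past 1.5-fold there, and NR2F1 stood at it (1.504).

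Other dorsal factors were within 1.5-fold. PAX6, which marks dorsal progenitors, was at 67.1 against 46.4 CPM (ratio 1.45, 1.35 to 1.55), ZBTB20, a factor of the hippocampal primordium, had a ratio of 1.41 (1.36 to 1.46), and GLI3, a zinc-finger factor required dorsally, a ratio of 1.23 (1.2 to 1.26). SP8 (1.10), FEZF1 (0.918) and NFIA (0.759) were likewise within it.

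Several dorsal genes below the level minimum had ratios above 4. DMRTA2, a DM-domain factor of the medial cortex, was at 7.79 against 1.82 CPM (ratio 4.28, 3.35 to 5.44). NR2E1, a nuclear receptor of progenitors, was at 1.86 against 0.221 CPM (ratio 8.43, 4.62 to 15.6). LHX9, a LIM-homeodomain factor, was at 7.13 against 0.685 CPM (ratio 10.4, 7.58 to 14.4), but 10 cells held 60.7% of its UMIs in EMX2-high cells, and the shallow cells with 0 EMX2 UMIs had it at 7.32 CPM (4.53 to 11.2), so this ratio holds against the deep comparators only. EOMES, NEUROG1 and TBR1 are described with the neurogenic genes. DMRT3, NFIB and BCL11A had ratios from 0.875 to 1.40, with intervals that include 1. NEUROG2 had 5 UMIs in EMX2-high cells and 0 in the comparators, where 3 counts correspond to 0.0316 CPM.

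**Figure D2:**
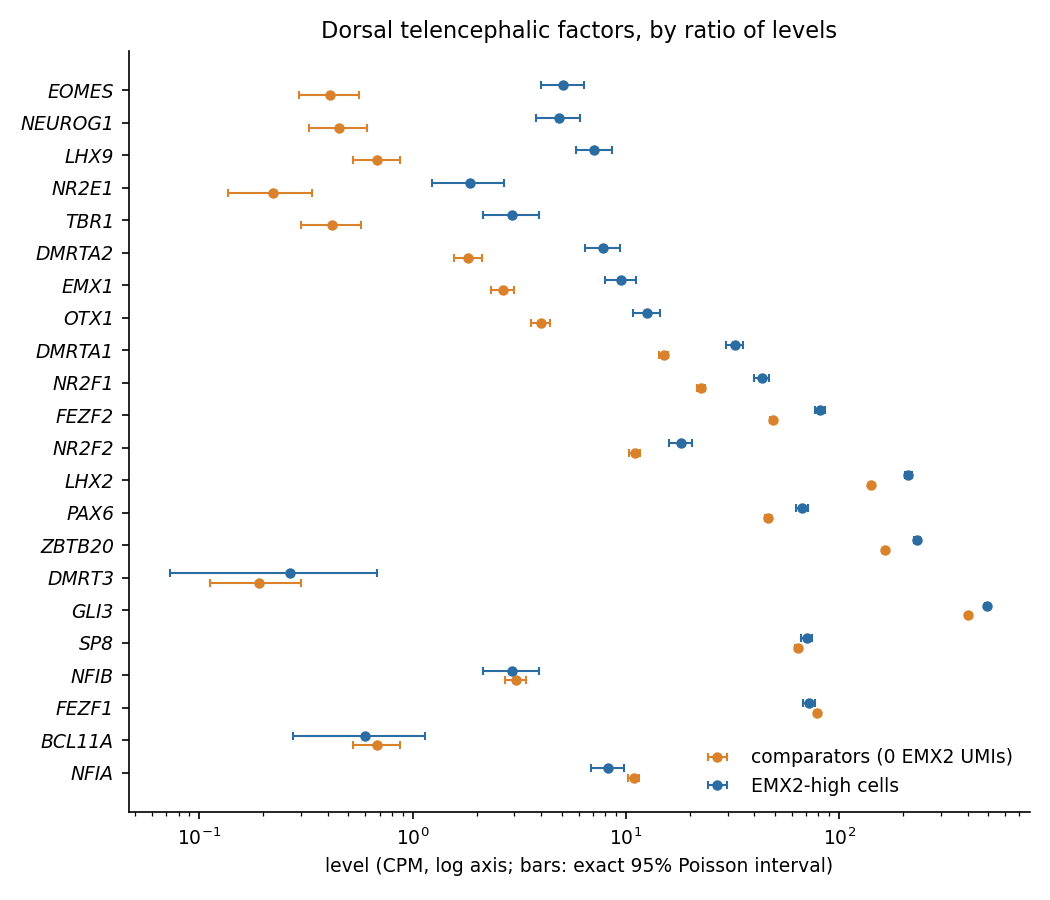
Levels (CPM, log axis) of dorsal telencephalic factors in EMX2-high cells (blue) and comparators (orange), ordered by ratio, with exact 95% Poisson intervals. EMX2 and NEUROG2, which have 0 UMIs in the comparators, and genes not reported here are left out. EOMES (5.06 against 0.411 CPM) is at the top and NFIA, with a ratio of 0.759, at the bottom.

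In the cells that the contractile limit had left out (1497 cells, median 48483 UMIs), EMX2 was at 4.51 CPM, LHX2 at 27.9 CPM, EMX1 at 0.224 CPM and HES5 at 10.3 CPM. After every cell was thinned at random to 5000 UMIs, an LHX2 UMI was found in 13.1% of these cells, in 63.9% of EMX2-high cells and in 50.9% of the comparators. For EMX1 the thinned shares were 0 of 1496 cells (an exact upper bound of 0.246%), 5.70% and 1.58%, so EMX1 in both kept groups lay above the share in the deepest cells of the library.

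Among 23 genes of the medial pallium, cortical hem and roof plate, 6 passed, 2 were higher, 1 was lower and 3 were within 1.5-fold. WNT2B, a WNT ligand of the medial pallium, was at 41.8 CPM (38.6 to 45.2) against 13.97 CPM (13.2 to 14.7), a ratio of 2.99 (2.71 to 3.29). RSPO1, a secreted amplifier of WNT signalling, was at 14.5 against 5.52 CPM (ratio 2.63, 2.24 to 3.09). BMP7, a BMP ligand of the roof plate, was lower at 37.2 against 64.5 CPM (ratio 0.576, 0.528 to 0.629). WNT2B (2.64) and RSPO1 (2.10) were past 1.5-fold without the contractile-rich cells and BMP7 (0.690) was not.

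Several other genes of this list, picked here after their values were seen, were near 0 in both groups. WNT8B and TTR had 0 UMIs in EMX2-high cells, where 3 counts correspond to 0.1998 CPM. In the comparators they were at 0.0527 and 0.0316 CPM. WNT3A had 2 UMIs in EMX2-high cells (0.133 against 0.158 CPM) and LMX1A had 7 (0.466 against 0.843 CPM). WNT3A, WNT8B and LMX1A were thus far below WNT2B in both groups, and their low levels are not particular to EMX2-high cells. BMP4 was at 0.400 CPM against 2.70 CPM. Of the 17 genes of the list below the level minimum, 5 had a ratio interval wholly above 1 and 4 wholly below it. RSPO2, a secreted WNT enhancer, was at 2.80 against 0.780 CPM (ratio 3.59, 2.40 to 5.31), and BMP6 (2.02, 1.29 to 3.07) and MSX1 (1.63, 1.11 to 2.35), a BMP ligand and a BMP-responsive factor, were also above 1, as were CLIC6 and BARHL2 with 12 and 6 UMIs. BMP4, RSPO3 (0.598, 0.440 to 0.798), WNT5A (0.566, 0.379 to 0.819) and MSX2 (0.452, 0.190 to 0.921) were below 1. The low genes of the list therefore had no common direction.

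Of 24 WNT pathway and feedback genes, 17 passed, 4 were higher and 1 was lower. LGR5, the receptor for R-spondins, was at 31.7 CPM (28.9 to 34.7) against 7.80 CPM (7.24 to 8.38), a ratio of 4.07 (3.62 to 4.57). LEF1, a nuclear effector and target of WNT signalling, had a ratio of 1.58 (1.42 to 1.75), which was 1.43 without the contractile-rich cells. The other genes that were higher, SFRP2 (217 against 105 CPM, ratio 2.08) and FRZB (221 against 121 CPM, ratio 1.82), encode secreted proteins that bind WNT ligands and act as antagonists. FZD5, a receptor of the anterior forebrain and eye field, was lower at 186 against 304 CPM (ratio 0.610, 0.587 to 0.635). The feedback target AXIN2 was below the minimum, at 5.59 against 4.30 CPM (ratio 1.3, 1.02 to 1.65), and SP5 had 0 UMIs in both groups.

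Among 18 genes of FGF signalling and the anterior ridge, 16 passed, 0 were higher and 5 were lower, with a median ratio of 0.853. Of the lower genes, FGF17 and FGF18 were below 5 CPM in EMX2-high cells and passed only through the comparators, so this count is a description. The ridge ligands FGF17 and FGF18 were at 1.73 against 9.83 CPM (ratio 0.176, 0.114 to 0.260) and at 2.86 against 11.6 CPM (ratio 0.246, 0.177 to 0.334). FGF8, a ligand of the same source, was at 13.9 against 9.70 CPM (ratio 1.43, 1.23 to 1.67), so the ligands did not share a direction. The feedback inhibitors DUSP6 (126 against 264 CPM, ratio 0.476), SPRY4 (25.6 against 51.3 CPM, ratio 0.498) and IL17RD (189.9 against 299 CPM, ratio 0.635) were lower. The receptor FGFR1 was within 1.5-fold (0.874), and FGFR2, below the minimum, was at 5.06 against 1.65 CPM (ratio 3.06, 2.30 to 4.05). When the contractile-rich cells were left out, 15 genes of this list passed and 3 were lower, with DUSP6 at 0.552 and SPRY4 at 0.5005. IL17RD (0.669) was then just inside the limit and FGF17 did not reach the level minimum.

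Of 19 ventral telencephalic factors, 5 passed, 3 were lower and 1 was higher. Of the lower genes, DLX5 and DLX6 were below 5 CPM in EMX2-high cells and passed only through the comparators, so this count is a description. DLX5, a homeodomain factor of ventral progenitors that also marks the anterior border of the neural plate, had the largest difference of the regional genes that passed. It was at 3.13 CPM (2.30 to 4.16) in EMX2-high cells and at 40.1 CPM (38.8 to 41.4) in the comparators, a ratio of 0.0781 (0.0573 to 0.104). A DLX5 UMI was found in 36 EMX2-high cells (3.78%) and in 34.3% of the comparators. Thinning each cell to 5000 UMIs gave 1.90% (1.13 to 2.98%) and 14.1% (13.2 to 15.1%). DLX5 was still lower without the contractile-rich cells (ratio 0.125). Its neighbour DLX6 was at 1.40 against 9.06 CPM (ratio 0.154, 0.0951 to 0.237) and did not reach the level minimum without the contractile-rich cells.

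VAX1, a factor of the ventral forebrain and optic stalk, was at 27.2 against 57.6 CPM (ratio 0.472, 0.426 to 0.522). MEIS2, which is also abundant in dorsal progenitors, was higher (207 against 133.9 CPM, ratio 1.55) and was within 1.5-fold without the contractile-rich cells (1.45). NKX2-1, the defining factor of the medial ganglionic eminence and hypothalamus, had 5 UMIs in EMX2-high cells, 0.333 CPM against 1.74 CPM (ratio 0.192, 0.0614 to 0.456).

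Other ventral markers went the opposite way at very low levels. GSX2, DLX1 and DLX2 had 31, 34 and 29 UMIs in EMX2-high cells, which is 2.06, 2.26 and 1.93 CPM, against 0.105, 0.158 and 0.263 CPM in the comparators. The ventral list therefore split, with DLX5 and DLX6 lower and DLX1, DLX2 and GSX2 higher, the last 3 all below the level minimum.

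The remaining regional lists gave few genes. Of 12 eye-field genes 2 passed. SIX3, a factor of the most anterior neural plate and eye field, was lower (225 against 364 CPM, ratio 0.617, 0.596 to 0.639). OTX2, a forebrain and midbrain factor, was higher (144 against 86.4 CPM, ratio 1.67, 1.59 to 1.75) and was within 1.5-fold without the contractile-rich cells (1.43). RAX and SIX6 were limited by the choice of cells. Of 19 diencephalic and hypothalamic genes 1 passed, and it was within 1.5-fold. Of 13 midbrain and hindbrain genes 3 passed and 2 were lower. PAX7, a paired-box factor of the dorsal neural tube and midbrain, was at 25.4 CPM (22.9 to 28.1) against 71.4 CPM (69.7 to 73.1), a ratio of 0.355 (0.320 to 0.394) that was 0.370 without the contractile-rich cells.

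A list of 32 genes covered neural progenitors and radial glia, the elongated stem cells of the developing cortex. Of these, 29 passed, 14 were higher, 4 were lower and 11 were within 1.5-fold, with a median ratio of 1.25. There were 11 higher and 3 lower without the contractile-rich cells. C1orf61, counted as higher, passed only through its level in EMX2-high cells. With the minimum set on the comparators alone, 28 passed, 13 were higher and 4 were lower. HES5, a Notch-driven repressor that keeps progenitors from differentiating, was at 388 CPM (378 to 398) against 107 CPM (105 to 109), a ratio of 3.63 (3.51 to 3.74). EMX2-high cells had 0 to 45 HES5 UMIs with a median of 4, and the comparators 0 to 47 with a median of 0. The HES5 ratio was 2.61 without the contractile-rich cells and 2.78 in the reading set.

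Other Notch pathway genes did not share a direction. The ligands DLL1 (52.3 against 23.8 CPM, ratio 2.20, 2.02 to 2.38) and DLL3 (19.0 against 10.7 CPM, ratio 1.78, 1.56 to 2.03) and the target HES4 (ratio 1.90, 1.82 to 1.99) were higher. HES1, the other main Notch target of progenitors, was lower at 64.9 CPM (60.9 to 69.1) against 129.7 CPM (127 to 132), a ratio of 0.5005 (0.468 to 0.534), also without the contractile-rich cells (0.507). NOTCH1 was within 1.5-fold (1.25). The DLL3 ratio was below 1 in S cells (0.821) and in G2/M cells (0.811), and it was 1.05 without cells that had 3 or more neuron markers. The HES5 promoter is shown because HES5 had the largest ratio among these Notch targets. The 250 bases before its start site, chr1:2530264-2530513 on the minus strand (GRCh38.p14, RefSeq), hold 2 matches of TTCCCAC or of its reverse complement GTGGGAA, a core recognised by the Notch effector RBPJ. The matches are in capitals. Such a match was found in the same window of 5.43% of 35116 RefSeq promoters.

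HES5 promoter: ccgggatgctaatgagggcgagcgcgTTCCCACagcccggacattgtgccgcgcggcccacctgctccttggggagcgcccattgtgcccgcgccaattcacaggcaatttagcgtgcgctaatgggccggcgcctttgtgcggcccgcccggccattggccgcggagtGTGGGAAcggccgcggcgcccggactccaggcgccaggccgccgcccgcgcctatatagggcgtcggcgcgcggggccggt

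The SOX factors of progenitors differed in size. SOX3, which keeps neural progenitors undifferentiated, was at 45.4 CPM (42.0 to 48.9) against 12.7 CPM (12.0 to 13.5), a ratio of 3.56 (3.24 to 3.91) that was 3.50 without the contractile-rich cells. SOX9 (115 against 58.5 CPM, ratio 1.97) and SOX1 (80.1 against 49.7 CPM, ratio 1.61) were higher, and SOX2 was within 1.5-fold (452 against 389 CPM, ratio 1.16, 1.13 to 1.19). The POU-domain factors POU3F2 and POU3F3, which act with SOX factors in neural cells, had ratios of 2.89 (2.55 to 3.27) and 2.48 (2.24 to 2.73). FABP7, a lipid-binding protein of radial glia, was at 704 against 395 CPM (ratio 1.78) and DACH1, a progenitor factor, at 547 against 328 CPM (ratio 1.67). SOX1 (1.43), FABP7 (1.42) and DACH1 (1.47) were within 1.5-fold without the contractile-rich cells.

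The ID genes, which block basic helix-loop-helix factors, split. ID4 was at 207 CPM (199 to 214) against 87.4 CPM (85.5 to 89.3), a ratio of 2.36 (2.27 to 2.46). ID1 (24.9 against 64.5 CPM, ratio 0.386, 0.347 to 0.429) and ID3 (99.6 against 190.4 CPM, ratio 0.523, 0.496 to 0.552), both targets of BMP signalling, were lower. VIM, an intermediate filament of progenitors and of mesenchyme, was lower at 676 against 1063 CPM (ratio 0.636) and was within 1.5-fold without the contractile-rich cells (0.828).

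C1orf61 and LINC00461 had the largest ratios of the progenitor list and of the genes outside the lists. Both were below 5 CPM in the comparators and passed only through their level in EMX2-high cells, so this rank is a description. C1orf61 is named MIR9-1HG in GENCODE version 44 (chromosome 1, 156404250 to 156456763, minus strand) and holds the hairpin of MIR9-1. LINC00461 (chromosome 5, 88507546 to 88691057, minus strand) holds that of MIR9-2. Both are host genes of miR-9, a microRNA of neural progenitors and young neurons. C1orf61 was at 65.8 CPM (61.8 to 70.0) against 4.81 CPM (4.38 to 5.28), a ratio of 13.7 (12.2 to 15.3). LINC00461 was at 20.4 CPM (18.2 to 22.8) against 1.40 CPM (1.17 to 1.66), a ratio of 14.5 (11.8 to 18.0). The third host, MIR9-3HG on chromosome 15, named after its values were seen, had 32 UMIs against 18, which is 2.13 against 0.190 CPM (ratio 11.2, 6.12 to 21.3).

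The mature miRNAs, which this 3′ library does not measure, are identical for the 3 loci in RefSeq. They are printed because they are what these host RNAs have in common, with the seed, bases 2 to 8, in capitals.
hsa-miR-9-5p: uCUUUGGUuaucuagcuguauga
hsa-miR-9-3p: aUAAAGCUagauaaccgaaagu

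A total of 2 or more C1orf61 and LINC00461 UMIs was found in 249 EMX2-high cells (26.1%) and in 107 comparators (2.16%). EMX2, which chose all of these cells, was at 290.4 CPM in the host-positive EMX2-high cells and at 275 CPM in the other 704. PAX6 had a ratio of 0.987 between them (0.858 to 1.13). EPHA3, an ephrin receptor, was at 140.5 against 25.6 CPM (ratio 5.48, 4.75 to 6.35). SOX3 (ratio 2.59, 2.22 to 3.02), WNT2B (2.47, 2.10 to 2.89), LGR5 (2.38, 1.98 to 2.86) and HES5 (1.93, 1.83 to 2.03) were also higher in the host-positive cells. PAX7 (4.43 against 33.7 CPM, ratio 0.131), DLX5 (0.467 against 4.19 CPM, from 2 UMIs, ratio 0.111, 0.0131 to 0.426), DUSP6 (0.462) and SIX3 (0.502) were lower.

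The host-positive 26.1% of EMX2-high cells thus had EPHA3 at several times the level of the rest. Without host-positive cells in either group, 316 genes were higher and 351 lower. EPHA3 then had a ratio of 3.09, HES5 3.10, EMX1 3.24 and WNT2B 2.22, and 5 dorsal factors were higher. C1orf61 had a ratio of 6.56, but its UMIs helped define the cells left out, so its fall is built into the choice.

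A small number of EMX2-high cells carried RNA of cortical neurogenesis. EOMES (also TBR2) marks intermediate progenitors of the cortex, NEUROG1 and NEUROD1 are proneural factors that act before and after the last division, and TBR1 marks early cortical neurons. At least 1 of these 4 RNAs was found in 34 EMX2-high cells (3.57%, 2.48 to 4.95%) and in 37 comparators (0.748%, 0.527 to 1.03%). The median depths of these cells were 12304 and 14206 UMIs. At least 3 were found in 16 EMX2-high cells (1.68%) and 8 comparators (0.162%), and all 4 in 6 and 2 cells.

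EOMES was at 5.06 CPM (3.99 to 6.33) against 0.411 CPM (0.292 to 0.562), a ratio of 12.3 (8.27 to 18.6). NEUROG1 (4.86 against 0.453 CPM, ratio 10.7) and NEUROD1 (6.33 against 0.485 CPM, ratio 13.1) were of like size, and TBR1 was at 2.93 against 0.421 CPM (ratio 6.95). In EMX2-high cells 10 cells held 81.6% of the EOMES, 63.0% of the NEUROG1, 74.7% of the NEUROD1 and 90.9% of the TBR1 UMIs, so these ratios are those of few cells. The shallow cells with 0 EMX2 UMIs had EOMES at 6.27 CPM (3.72 to 9.91), NEUROD1 at 6.62 CPM (3.99 to 10.3) and STMN2 at 110.1 CPM (98.3 to 123), none of them below the EMX2-high level. The neurogenic ratios therefore hold against the deep comparators only. In the 1497 cells left out by the contractile limit, EOMES had a UMI in 0.134% and NEUROG1 in none.

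Of 17 general neuron genes 9 passed, 3 were higher, 1 was lower and 5 were within 1.5-fold, with a median ratio of 1.33. Of the 8 below the level minimum, 6 had a ratio interval wholly above 1 and 0 wholly below it. Besides NEUROD1 these were NEUROD4 (ratio 23.5, from 26 UMIs against 7), NHLH1 (4.93), ELAVL4 (4.58), RELN (4.46) and EBF3 (2.29). In EMX2-high cells 10 cells held from 59.5% to 96.2% of the UMIs of each of these. ELAVL4 (8.36 CPM) and EBF3 (6.97 CPM) were no lower in the shallow cells with 0 EMX2 UMIs than in EMX2-high cells (7.73 and 6.13 CPM). Their ratios therefore hold against the deep comparators only. RELN was lower in the shallow cells, at 2.44 CPM (0.981 to 5.03) against 5.93 CPM in EMX2-high cells. NEUROD4 was at 0.697 CPM (0.0844 to 2.52) against 1.73 CPM, and NHLH1 at 3.49 CPM (1.67 to 6.41) against 5.93 CPM. Both of these intervals include the EMX2-high level, so no direction can be read for NEUROD4 or NHLH1. Among G1 cells of both groups 15 neuron genes passed, 9 were higher and 1 was lower, with a median ratio of 2.49. Over all 11844 genes that passed in G1 cells, 553 were higher and 586 lower. How many of the 15 passed only through EMX2-high cells was not counted, so this G1 count is a description. DCX, a microtubule protein of migrating neurons, was at 116 against 63.0 CPM (ratio 1.84, 1.74 to 1.94), with a UMI in 65.4% of EMX2-high cells and 56.8% of the comparators. STMN2, a microtubule protein of growing axons, was at 55.7 against 23.5 CPM (ratio 2.37, 2.19 to 2.57), but 10 cells held 54.2% of its UMIs and a UMI was found in 13.0% against 12.5% of cells. ELAVL3, a neuronal RNA-binding protein, had a ratio of 1.93 (1.64 to 2.28), and GAP43, a growth-cone protein, was lower (10.5 against 23.7 CPM, ratio 0.442) and was at 0.948 without the contractile-rich cells. The 7 neuron markers counted per cell were DCX, STMN2, ELAVL3, ELAVL4, TUBB3, INA and SYT1. Cells with at least 3 of these 7 were 27.4% of EMX2-high cells and 29.8% of the comparators. These shares were read without thinning, so depth enters them, and the shallow cells with 0 EMX2 UMIs had 17.6%. Whether the groups differ in neurons cannot be read from them. STMN2 and ELAVL3 were below 1 in S cells (0.907 and 0.764), and STMN2 also in G2/M cells (0.766). Without cells that had 3 or more neuron markers neither gene reached the level minimum. Both are among the 7 markers that removed those cells, so this drop is built into the choice.

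Of 32 axon guidance and adhesion genes 28 passed, 7 were higher, 6 were lower and 15 were within 1.5-fold. PCDH19, a protocadherin, was at 80.3 CPM (75.8 to 85.0) against 23.6 CPM (22.7 to 24.6), a ratio of 3.40 (3.17 to 3.65). NRP1, a semaphorin receptor, had a ratio of 1.95 (1.81 to 2.11), and PLXNA2, DCC, CDH8, SEMA3A and ROBO2 had ratios from 1.57 to 1.75. UNC5C, a netrin receptor, was lower at 36.0 CPM (33.0 to 39.1) against 189.5 CPM (187 to 192), a ratio of 0.190 (0.174 to 0.207). CDH6, PCDH17, SLIT2, EPHA7 and SEMA6A had ratios from 0.495 to 0.591. UNC5C was at 0.223, CDH6 at 0.943, SLIT2 at 0.746 and ROBO2 at 1.39 without the contractile-rich cells, so that only UNC5C of these 4 stayed past 1.5-fold. DCC was at 0.768 in S cells, where its direction turned. Without cells that had 3 or more neuron markers DCC was at 1.09, PLXNA2 at 1.39 and SEMA3A at 1.45, all within 1.5-fold.

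EMX2OS, the antisense RNA of the EMX2 locus (chromosome 10, 117473215 to 117545068, minus strand), overlaps EMX2 over 2624 bp. The study ran Cell Ranger with default parameters and names no strand setting. How reads of the overlap were assigned to the 2 genes was not checked here. EMX2OS was at 82.5 CPM (78.0 to 87.2) against 29.0 CPM (28.0 to 30.1), a ratio of 2.84 (2.66 to 3.04), and the ratio was 2.11 in the reading set and 2.15 without the contractile-rich cells. Of 16 genes near EMX2 on chromosome 10, 12 passed, EMX2OS was the only one higher, VAX1 was lower, and 10 were within 1.5-fold, with a median ratio of 0.898. RAB11FIP2, a regulator of vesicle recycling, stood just inside the limit at 68.3 against 45.6 CPM (ratio 1.497, 1.40 to 1.60).

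**Figure D3:**
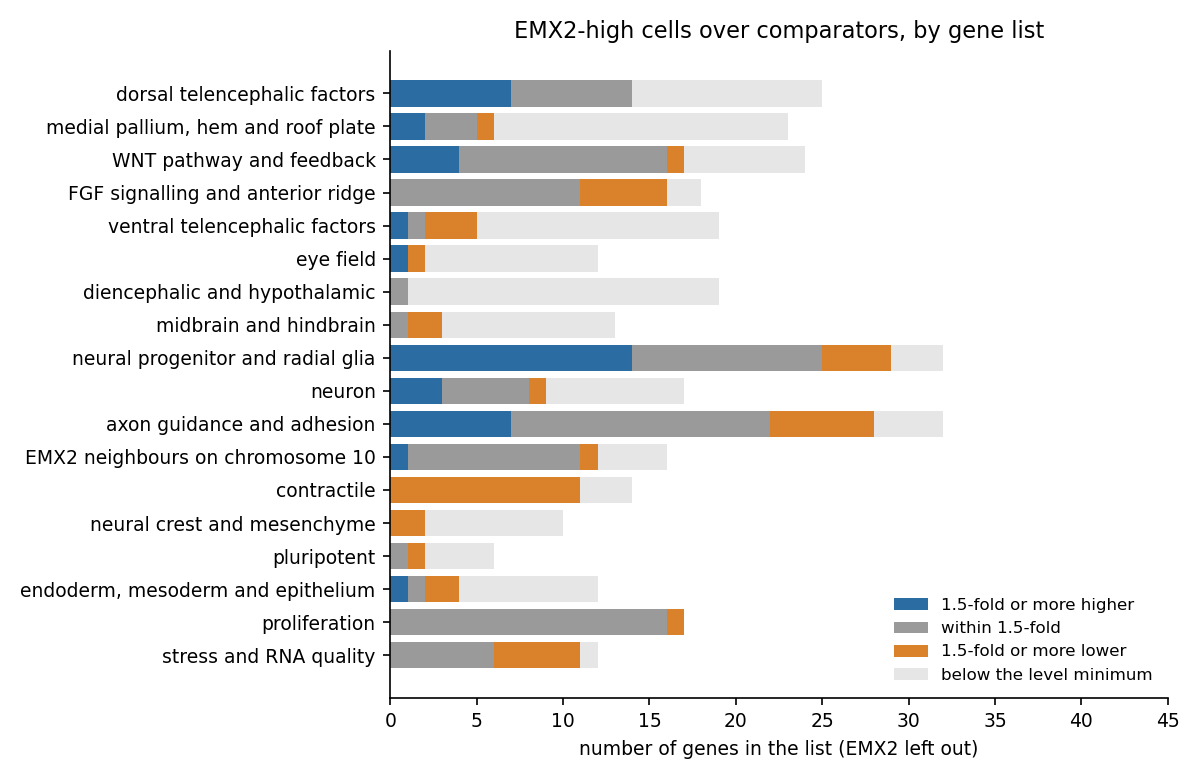
Number of genes in each of 18 lists that were 1.5-fold or more higher (blue), within 1.5-fold (dark grey) or 1.5-fold or more lower (orange) in EMX2-high cells over comparators, or below the level minimum (light grey). EMX2 is left out. The progenitor list has the most genes higher by count (14 of 29 that passed, with 7 of 14 in the dorsal list) and all 11 contractile genes that passed are lower.

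Outside the lists, 15 genes with the highest and 15 with the lowest ratio were named among genes at a mean of at least 10 CPM. After LINC00461, the highest were ANOS1, a secreted protein needed for olfactory and gonadotropin-releasing-hormone neurons (48.7 against 8.42 CPM, ratio 5.79, 5.23 to 6.41), and VEPH1, a membrane-associated protein of the developing brain (82.8 against 22.8 CPM, ratio 3.63, 3.39 to 3.90). KCNQ3, a potassium channel subunit, was at 168 against 52.7 CPM (ratio 3.19, 3.04 to 3.35), and TOX, a DNA-binding protein of cortical progenitors, at 102 against 34.7 CPM (ratio 2.95, 2.77 to 3.13). EDNRB, the endothelin receptor, FYB2, HS3ST3A1, SNAP91, AL139246.5, DOCK10, CADPS, KCNH8, LIX1 and SNCAIP had ratios from 2.58 to 3.05. LINC00461, ANOS1, EDNRB, FYB2, HS3ST3A1 and SNAP91 were below 10 CPM in the comparators. They passed only through their level in EMX2-high cells, so this rank is a description. All 15 of the highest genes stayed above 2-fold without the contractile-rich cells, with the lowest ratio at KCNH8 (2.005).

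The lowest were CYTOR (ratio 0.0807), ANXA3 (0.0954), IER3 (0.104), AC016766.1 (0.12), SAMD4A (0.128), AC099499.1 (0.15), CPNE4 (0.162), RGS5 (0.163), PTPRT (0.165), AC022140.1 (0.194), THBS1 (0.195), ANKRD1 (0.201), PRICKLE1 (0.210), AC044810.3 (0.212) and HIVEP3 (0.238). Several of these are genes of contractile or mechanically stretched cells, such as ANKRD1, RGS5 and THBS1. CYTOR, ANXA3, AC099499.1, CPNE4, RGS5, THBS1, ANKRD1 and AC044810.3 were below 10 CPM in EMX2-high cells. They passed only through their level in the comparators, so this rank too is a description. Leaving out the contractile-rich cells put ANKRD1 at 0.906, AC016766.1 at 0.573 and THBS1 below the level minimum, but left PTPRT, a receptor phosphatase (19.4 against 118 CPM), at 0.251 and AC022140.1 at 0.219.

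All 11 of the contractile genes that passed were lower, 3 of them used by the cell filter, with summed list levels of 617 and 2582.5 CPM. TAGLN, an actin-binding protein of smooth muscle, was at 36.3 CPM (33.3 to 39.5) against 733 CPM (728 to 739), a ratio of 0.0495 (0.0454 to 0.0539), and 686 EMX2-high cells (72.0%) against 39.6% of the comparators had no TAGLN UMI. Without the contractile-rich cells TAGLN was at 0.350, ACTA2 at 0.777 and MYL9 at 0.526. All of these are among the genes that defined the cells left out, so their move towards 1 is built into the choice. Of 12 genes of endoderm, mesoderm and epithelium, 4 passed, 1 was higher and 2 were lower. KRT8 and KRT18, simple-epithelial keratins, were at 0.540 and 0.424 with all cells, and KRT19 was within 1.5-fold (1.07). EPCAM, an epithelial adhesion molecule, was at 6.86 against 4.18 CPM (ratio 1.64), and at 1.55 without the contractile-rich cells. It passed only through its level in EMX2-high cells. COL1A2 and PRRX1, genes of mesenchyme, were at 0.378 and 0.525. With the contractile-rich cells left out KRT8 (0.751), KRT18 (0.680) and PRRX1 (0.753) were within 1.5-fold, and COL1A2 was below the level minimum. The defining crest factors SOX10 and FOXD3 had 9 and 0 UMIs in EMX2-high cells.

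Of 12 genes of stress and RNA quality 11 passed, 0 were higher and 5 were lower. JUN, an immediate early gene, was at 8.99 CPM (7.54 to 10.6) against 41.0 CPM (39.7 to 42.3), a ratio of 0.219 (0.183 to 0.261), and 0.297 without the contractile-rich cells. ATF3 (0.50), NEAT1 (0.517), DDIT3 (0.643) and HSPA5 (0.656) were also lower, and without the contractile-rich cells 10 genes of this list passed, of which 1 was lower and 1 was higher. The part of stress RNA in the other differences was not tested. L1TD1, an RNA-binding protein retained from the stem cell stage, was at 49.1 against 103 CPM (ratio 0.478), and POU5F1, the pluripotency factor, had 3 UMIs in EMX2-high cells.

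All 17 proliferation genes passed, with a median ratio of 0.855. Of them 16 were within 1.5-fold and CDKN1A, a cell-cycle inhibitor, was lower (4.196 against 7.60 CPM, ratio 0.552, 0.420 to 0.715), but did not reach the level minimum without the contractile-rich cells. MKI67 (ratio 1.05, 1.01 to 1.09) and TOP2A (1.05, 1.02 to 1.08), markers of dividing cells, were close to 1, PCNA, a replication factor, was at 0.843 (0.798 to 0.891), and CCND1, a G1 cyclin, at 0.722 (0.691 to 0.755). Phase scores called 34.9% (31.9 to 38.1%) of EMX2-high cells G1, 38.3% S and 26.8% G2/M, against 27.3% (26.1 to 28.6%), 42.7% and 30.0% of the comparators. After thinning to 5000 UMIs the G1 shares were 35.9% (32.8 to 39.0%) and 28.8% (27.5 to 30.1%). Phase scores also read free RNA, whose part was not tested.

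The levels were also read across the range of EMX2 in the kept cells. Cells with an EMX2 UMI that were not EMX2-high were divided at their median rate into a lower and an upper group, and the EMX2-high cells likewise. HES5 was at 107 CPM in the comparators, at 166 and 292 CPM in the lower and upper group of the other EMX2-positive cells, and at 362 and 417 CPM in the lower and upper group of the EMX2-high cells. C1orf61 was at 4.81, 12.3, 31.1, 55.5 and 77.0 CPM in the same order. LHX2 was at 140.3, 170.0, 192, 203 and 220.1 CPM.

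DLX5 ran the other way at 40.1, 20.9, 8.65, 3.96 and 2.23 CPM, as did TAGLN at 733, 318, 89.5, 44.7 and 27.1 CPM and PAX7 at 71.4, 58.3, 43.5, 29.1 and 21.3 CPM. The 5 groups are cut on the EMX2 rate that chose the cells, so these values are a description, and whether the levels step at the boundary cannot be read from them. The share of contractile-rich cells fell through the same groups, at 26.1%, 14.5%, 4.72%, 2.73% and 0.840%. With those cells left out, DLX5 was at 22.4, 12.7, 7.23, 3.44 and 2.10 CPM, TAGLN at 68.4, 52.6, 36.1, 25.6 and 22.1 CPM, and PAX7 at 67.6, 54.4, 41.7, 28.7 and 21.2 CPM. HES5 was then at 149.6, 195, 305, 365 and 419 CPM, and LHX2 at 164, 179, 193, 202 and 220.1 CPM. The order of the groups was the same for these 5 genes, and the span of TAGLN was much smaller. TAGLN is among the genes that defined the cells left out, so its smaller span is built into the choice.

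Within the EMX2-high cells the upper group exceeded the lower in C1orf61 (ratio 1.39, 1.22 to 1.58), LINC00461 (1.46, 1.15 to 1.84), EMX2OS (1.24, 1.11 to 1.39), FEZF2 (1.2, 1.07 to 1.34) and HES5 (1.15, 1.09 to 1.21). LHX2 was at 1.09 (1.01 to 1.17). ID1 (0.609, 0.489 to 0.755), PAX7 (0.732, 0.592 to 0.902) and SIX3 (0.873, 0.815 to 0.935) were lower in the upper group. Intervals of PAX6, SFRP2 and KCNQ3 included 1. Depth moved with some of these levels. The 336 shallow cells with 0 EMX2 UMIs had HES5 at 284 CPM, C1orf61 at 23.0 CPM, EOMES at 6.27 CPM and TAGLN at 148 CPM, levels unlike those of the deeper comparators. Between 10000 and 30000 UMIs in both groups, 317 genes were higher and 295 lower, and HES5 had a ratio of 3.01, C1orf61 11.1, EMX1 3.05 and DLX5 0.106.

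**Figure D4:**
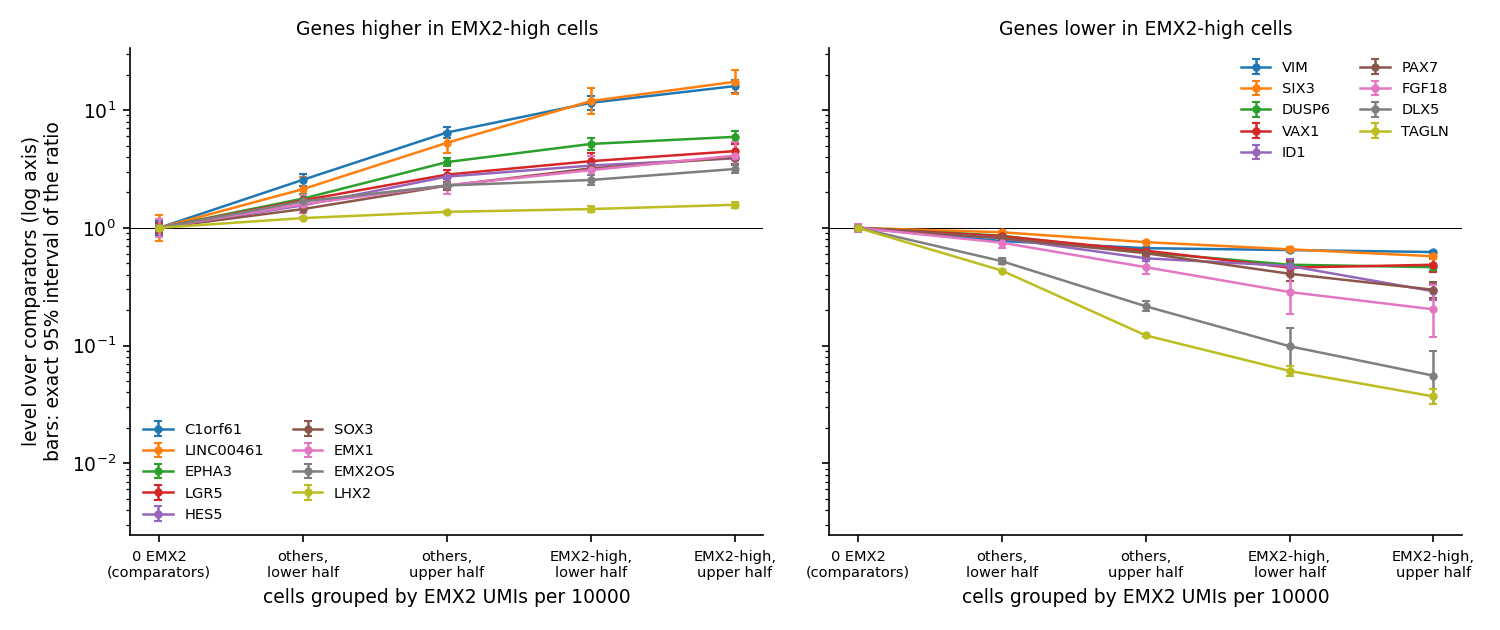
Level over comparators (log axis, exact 95% intervals of the ratio) in 5 groups of kept cells ordered by EMX2 UMIs per 10000. Genes on the left climb with EMX2 (C1orf61 from 4.81 to 77.0 CPM), and genes on the right decline (DLX5 from 40.1 to 2.23 CPM).

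The EMX2-high cells were set beside the other regional cells of the library. The 323 cells with at least 2 RAX and SIX6 UMIs (median 26042 UMIs) had EMX2 at 31.8 CPM, LHX2 at 134 CPM, EMX1 at 1.49 CPM, HES5 at 69.8 CPM, DLX5 at 57.6 CPM and TAGLN at 857 CPM. Of them, 43.7% were contractile-rich. The 211 kept cells with an NKX2-1 UMI (median 17869 UMIs) had EMX2 at 43.7 CPM, LHX2 at 165 CPM, EMX1 at 0.470 CPM, HES5 at 206 CPM, DLX5 at 20.7 CPM and C1orf61 at 4.70 CPM, and 5 of them were EMX2-high. EMX1, C1orf61 and EPHA3 (6.48 and 11.8 CPM, against 58.4 CPM) were higher in EMX2-high cells than in either set. RSPO1 and NR2F1 were near the levels of the NKX2-1 cells, which had RSPO1 at 13.6 CPM (10.4 to 17.6) against 14.5 CPM in EMX2-high cells, and NR2F1 at 39.0 CPM (33.3 to 45.4) against 43.4 CPM.

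SMG6, the gene that holds HAR123, was at 133 CPM against 127 CPM (ratio 1.05, 1.00 to 1.10). HIC1, a zinc-finger repressor, had 2 UMIs in EMX2-high cells and 43 in the comparators, a ratio of 0.294 (0.0345 to 1.13). Both were named after their values were seen, SMG6 was within 1.5-fold, and the HIC1 interval included 1.

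The ratios were recomputed with other choices of cells. By UMIs per cell, with no scaling to depth, the median gene had a ratio of 0.823, with a lower median depth in EMX2-high cells. This choice multiplies every ratio by the same factor, and relative to 1, 168 genes were then 1.5-fold higher and 1159 lower. Of the 428 genes, 254 were among the 318 that were higher in the reading set, and of the 379, 285 were among the 336 that were lower.

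**Figure D5:**
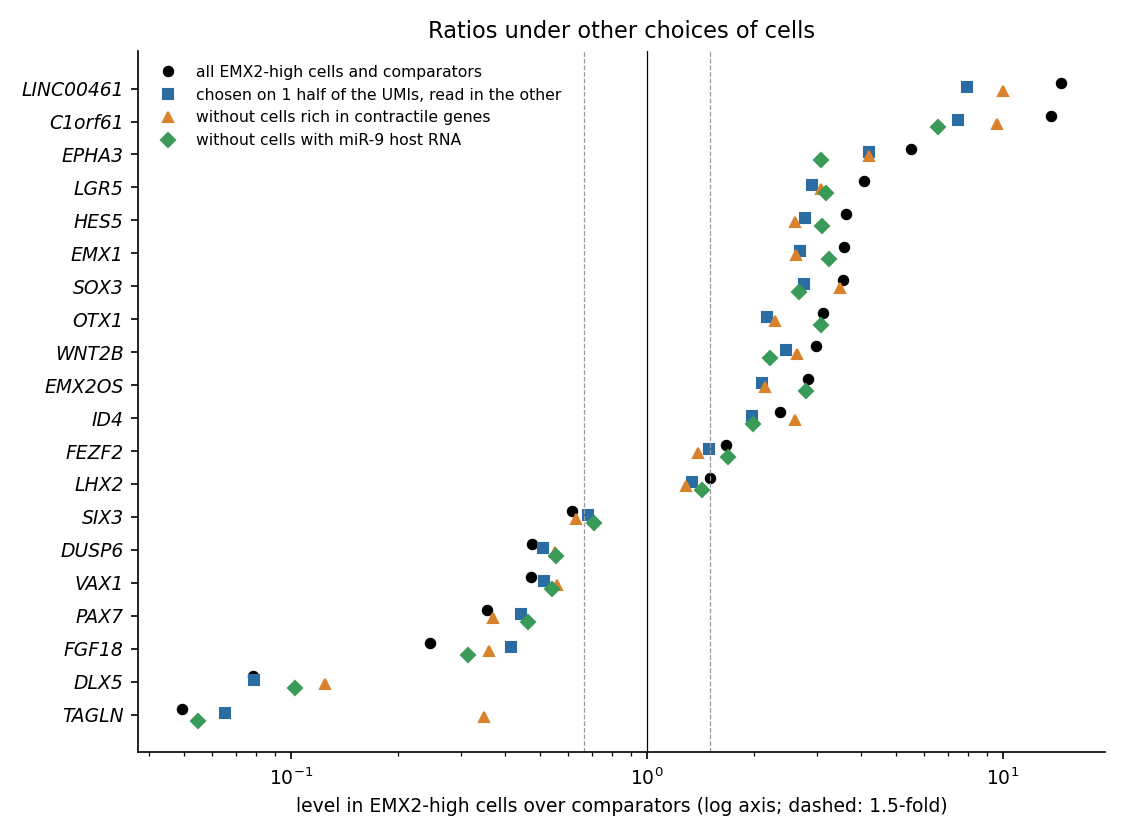
Ratio of levels in EMX2-high cells over comparators (log axis) for 20 genes, with all cells (black), with cells chosen on the choosing set and read in the reading set (blue), without contractile-rich cells (orange) and without miR-9 host cells (green). Dashed lines mark 1.5-fold. LHX2 moves inside the limit, TAGLN moves from 0.0495 to 0.350, and HES5 stays between 2.61 and 3.63. TAGLN helped define the contractile-rich cells, and C1orf61 and LINC00461 defined the miR-9 host cells.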

How the data were processed

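The authors deposited raw UMI counts per gene and cell barcode of 1 library (33538 genes, 327640709 UMIs, no normalization), made with Cell Ranger 7.0.1 on GRCh38 per the submitters' processing notes. The study reports default parameters for Cell Ranger and does not name the gene annotation or the strand setting. The columns of the matrix are cells of 1 sample. The quality limits are those of the study's methods, with the mitochondrial limit read as a fraction, plus the lower limit and the gene limits described above.

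Levels are summed counts over all UMIs of a group, in CPM, with exact 95% Poisson intervals. Ratios carry the exact conditional interval and shares the exact binomial (Clopper-Pearson) one. All cover counting error only. A count of 0 was kept as 0, and the level that 3 counts of the group would have is quoted beside some of them. Named genes were the dorsal factors, genes of the other lists at 5 CPM and 1.5-fold, and the 15 highest and 15 lowest ratios outside the lists at a mean of 10 CPM. List genes were also named where they show that a cell type is near 0. Genes named beyond this rule (list genes within 1.5-fold or below the minimum, MIR9-3HG, SMG6 and HIC1) were chosen after their values were seen. The cells, the 18 gene lists and the alternatives were chosen with earlier results of these data known. Some list genes are counted in the list totals and not reported here by name.

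Phases were scored with scanpy on 42 S and 52 G2/M genes of the Seurat lists. Scrublet, run in scanpy, called 1 barcode (threshold 0.774) so that it is taken as failed, and doublets stayed in. An alternative left out the 1178 highest scores (8%). Each cell was thinned without replacement to 5000 UMIs, which left out 5 EMX2-high cells. Sequences came from RefSeq tables and gene spans from GENCODE version 44. The scripts were tested on simulated data. Scanpy 1.11.5 with anndata 0.12.19, scipy 1.17.1, numpy 2.4.6, pandas 2.3.3 and matplotlib 3.10.9 ran under Python 3.11.15.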

Additional observations from a re-analysis of the deposited data

How the results depend on the processing

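The LHX2 ratio was 1.57 with 4% of cells as EMX2-high, 1.37 with thinning to 5000 UMIs, 1.34 with cells chosen on the choosing set and read in the reading set, 1.3 against all other kept cells, 1.38 between 10000 and 30000 UMIs, 1.44 as a mean of per-cell CPM, 1.23 by UMIs per cell, 1.68 in G1 and 1.37 in S cells. Without the contractile-rich cells it was 1.29 and without miR-9 host cells 1.42, 2 alternatives chosen after seeing the data. It stayed above 1 under all 16 settings run, and the ratio of the upper to the lower group of EMX2-high cells by EMX2 rate moved to 1.2 in S cells. EMX2 was at 335 CPM with 4% and 223 CPM with 16% of cells, at 135.4 CPM in the reading set and at 289 CPM in G1 cells.

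Counts of higher and lower genes were 211 and 241 against all other kept cells, 168 and 1159 by UMIs per cell, 254 and 187 without the contractile-rich cells, 191 and 204 at a minimum of 20 CPM, 4328 and 6128 with no minimum, and 117 and 164 at 2-fold. In G1 cells 553 were higher and 586 lower. Scaling by the median ratio gave 420 and 385. Of the dorsal factors, 4 were higher in the reading set, 4 higher and 1 lower by UMIs per cell, 13 and 1 of 20 that passed in G1 cells, and 1 lower without the contractile-rich cells. The G1 share was 31.7% with 16% of cells, and the S share 42.0% in cells chosen on the choosing set. Over 117 named genes and 16 settings, 1730 of 1840 ratios stayed within 1.5 times of the value given, 104 moved further and 6 changed direction. These were DLL3 (0.821), STMN2 (0.907), ELAVL3 (0.764) and DCC (0.768) in S cells, and DLL3 (0.811) and STMN2 (0.766) in G2/M cells. The causes were not tested. The ratio of the upper to the lower group of EMX2-high cells was not run for cells rechosen on the choosing set or for other scalings. No paired analysis was possible because there is 1 library. Counts of a few UMIs limit all genes below 5 CPM.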
